A study of Rattus norvegicus with 2 samples.

Results

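C1s, Serping1, Clu and Cd55 encode a protease of the first complement component and 3 complement regulators. They were chosen by gene symbol, and each symbol matched 1 of the 2325 rows of a table that compares cultured rat mesenchymal stem cells of the bone marrow (bmMSCs, stromal cells that grow attached to plastic) with and without the transcription factors Pdx1 and Ngn3. The untransfected group is 1 library of Sprague-Dawley rat bmMSCs at passages 3 to 5. The transfected group is 1 library of bmMSCs of the same strain and with the same range of passages given. It was taken on day 10 after Pdx1 and Ngn3 had been introduced together by transfection. The sources used here do not give the vector, the share of cells that took it up or the number of rats behind each library. The control did not go through transfection, so the procedure and the introduced genes cannot be told apart. No day is given here for the untransfected library, so time in culture cannot be told apart from them either. With 1 library per group none of the differences could be checked against replicates, and every interval is a 95% interval for counting error alone.

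Complement is a cascade of plasma and tissue proteins that marks surfaces for clearance. In the classical pathway C1q binds a target and activates C1r, which activates C1s, and C1s then cleaves C4 and C2 so that the C3 convertase can form. The C1 inhibitor, the product of Serping1, removes active C1r and C1s from the complex, CD55 speeds the decay of convertases on the cell's own membrane, and clusterin binds late components before they insert into membranes. Liver supplies most plasma complement, and stromal cells and fibroblasts are known to make several components locally.

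The libraries held 7800831 reads (untransfected) and 7415094 reads (transfected), totals implied by the deposited counts, gene lengths and RPKM (reads scaled by gene length and by library total). Pdx1, one of the introduced genes, had 0 reads in the untransfected and 565 in the transfected library, and Neurog3 was not analysed here. A row counted as changed at a ratio of scaled reads of at least 2-fold with an interval that excluded 1. All 2325 rows met this, because the authors had already selected the table on change: 63.5% of rows were higher and 36.5% lower in the transfected library. That the 4 members differed is therefore a property of the table, and their direction has to be read beside those shares. Of 14 mesenchymal stromal markers 5 were in the table, with a summed level of 2207 RPKM without and 982 RPKM with transfection. Of these 3 were higher, Vcam1 (9.62-fold), Cxcl12 (2.82-fold) and Pdgfra (2.58-fold), and the more abundant Thy1 (3.41-fold) and Itgb1 (2.04-fold) were lower, with at least 322 RPKM in each library.

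C1s, Serping1 and Clu were higher and Cd55 was lower in the transfected library. Serping1 had the largest ratio (11.95-fold), then C1s (8.88-fold) and Clu (3.29-fold), while Cd55 was 2.56-fold lower. That makes 3 higher and 1 lower of 4, against 63.5% and 36.5% over all rows, and 4 genes are too few to set apart from such a background. Bulk counts cannot tell a change in the number of cells that express a gene from a change in RNA per cell.

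**Figure D1:**
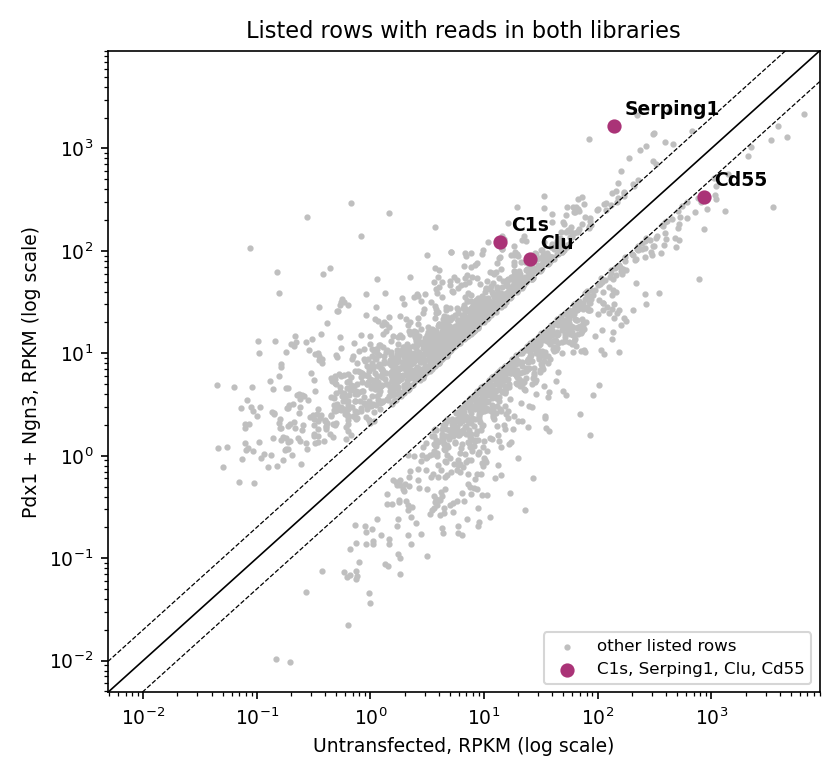
Level in untransfected (horizontal) against transfected cells (vertical), in RPKM on log axes, for listed rows with reads in both libraries; the solid line is equality and the dashed lines are 2-fold. Serping1, C1s and Clu lie above the upper dashed line and Cd55 below the lower one, and the empty band between the dashed lines is the authors' selection.

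C1s, the serine protease that carries the catalytic step of the C1 complex, had 316 untransfected and 2666 transfected reads. Its level was 13.9 RPKM (interval 12.4 to 15.5) in the first and 124 RPKM (119 to 128) in the second. The ratio was 8.88-fold (7.90 to 10.0), which placed C1s at 253 of the 1476 higher rows. The counted cDNA is 2910 bases long, with a coding sequence of 2085 bases for a protein of 694 residues.

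Serping1, the C1 inhibitor and the serpin that inactivates C1s, had 2015 untransfected and 22897 transfected reads. Its level went from 140 RPKM (134 to 146) to 1669 RPKM (1648 to 1691), a ratio of 11.95-fold (11.4 to 12.5). It held 0.0258% (0.0247 to 0.0270) of all untransfected reads and 0.309% (0.305 to 0.313) of all transfected reads, by exact binomial intervals. In the transfected library it was the gene with the fourth highest RPKM of the table, against place 110 in the untransfected library. By ratio it stood at 177 of the 1476 higher rows.

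Serping1 thus stayed above C1s in both libraries. Per length, Serping1 was at 10.0 times the level of C1s in untransfected cells (8.90 to 11.3) and at 13.5 times in transfected cells (12.98 to 14.1). The ratio of Serping1 was 1.35 times that of C1s (1.18 to 1.53, exact conditional interval of the 4 counts), which exceeds counting error. If cultures are taken to vary with a coefficient of variation of 0.2, the interval of this difference on the log2 scale ran from -0.72 to 1.58 and included 0, so whether inhibitor and protease differed in ratio is not resolved by these libraries.

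Clu, clusterin, a secreted chaperone that also restrains the membrane attack complex, had 364 and 1139 reads. Its level was 25.1 RPKM (22.6 to 27.8) without and 82.7 RPKM (78.0 to 87.7) with transfection. The ratio of 3.29-fold (2.92 to 3.71) placed it at 770 of the 1476 higher rows, near the middle of them. Clu was the member whose call depended on scaling: its log2 ratio of 1.72 became 0.94 with TMM factors and 0.52 with median-of-ratios factors, both above 0 and both short of 2-fold. Those factors were computed on genes selected for change and move every log2 ratio of the table by -0.78 and -1.20, which would leave 46.4% and 37.6% of the remaining calls on the higher side.

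Cd55, decay-accelerating factor, which is anchored in the plasma membrane, had 16709 untransfected and 6201 transfected reads. Its level was 864 RPKM (851 to 877) and 337 RPKM (329 to 346), so it was 2.56-fold lower (2.49 to 2.64). It lay at 562 of the 849 lower rows by ratio, and at place 17 and place 36 of all rows by RPKM in the untransfected and transfected library, so it was among the most abundant listed genes in both. At a coefficient of variation of 0.4 between cultures the interval of its log2 ratio (-1.36) ran from -2.96 to 0.24 and included no change. The same assumption kept the intervals of the other members above 0, with the lower limit of Clu at 0.11.

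Cd55 was the member with an entry in the RefSeq promoter table (GRCr8). The 250 bases before its annotated start, chr13:44438102-44438351 on the minus strand, are shown for that reason, and capitals mark matches to the GC box GGGCGG or its reverse complement. The window lies inside the span of the Cd55 gene, since other RefSeq transcripts of the gene start further upstream.
Cd55: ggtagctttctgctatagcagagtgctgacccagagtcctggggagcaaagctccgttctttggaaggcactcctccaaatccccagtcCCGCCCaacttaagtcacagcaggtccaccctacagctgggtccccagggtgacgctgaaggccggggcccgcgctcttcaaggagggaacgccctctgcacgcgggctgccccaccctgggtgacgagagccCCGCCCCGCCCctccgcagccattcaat
The window is 64.4% G and C, against a median of 51.2% over 33469 rat promoters. GGGCGG matched at 3 places on the strand opposite to the one printed, which begin 161, 28 and 23 bases before the start, the last 2 sharing a base. This motif was chosen after the sequence was seen, and 30.5% of rat promoter windows of this length hold it. None of 6 other motifs searched on both strands was in the window: TTCNNNGAA, the gamma-interferon activated site (in 7.67% of windows), the interferon-stimulated response element, searched as 2 copies of GAAA with 2 bases between them (3.41%), TGANTCA for AP-1 (6.34%), the E-box CAGATG (14.0%), the homeodomain site TAATTA (4.86%) and TATAAA (12.9%). Of the E-box only the form CAGATG was searched, and the printed window does hold the form CAGCTG. All of these are matches of letters in 1 window, and no measurement here bears on binding.

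The order of the members by level changed between the libraries. In untransfected cells it ran Cd55 (864 RPKM), Serping1 (140), Clu (25.1) and C1s (13.9), and in transfected cells Serping1 (1669 RPKM), Cd55 (337), C1s (124) and Clu (82.7). No neighbours in either order had overlapping intervals. Cd55 was at 6.19 times the level of Serping1 in untransfected cells (5.91 to 6.48), and Serping1 at 4.95 times the level of Cd55 in transfected cells (4.81 to 5.09). Clu was at 1.81 times the level of C1s before (1.55 to 2.11), and C1s at 1.49 times the level of Clu after (1.39 to 1.60). These comparisons within a library do not depend on how the libraries are scaled, but they do depend on the deposited gene lengths.

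Differences in ratio between members are also free of library scaling. All 6 pairs differed by more than counting error. The authors' selection left only rows that changed at least 2-fold, so a gap between Cd55 and each higher member was fixed in advance. The widest gap was between Serping1 and Cd55, whose ratios differed 30.6-fold (29.0 to 32.3), and C1s and Cd55 differed 22.7-fold (20.1 to 25.7). Clu and Cd55 differed 8.43-fold (7.46 to 9.55). Among the higher members, Serping1 exceeded Clu 3.63-fold (3.19 to 4.13) and C1s exceeded Clu 2.70-fold (2.28 to 3.19). With an assumed coefficient of variation of 0.4 the intervals of these last 2 pairs, and of Serping1 and C1s, included no difference, whereas the 3 pairs with Cd55 stayed apart.

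**Figure D2:**
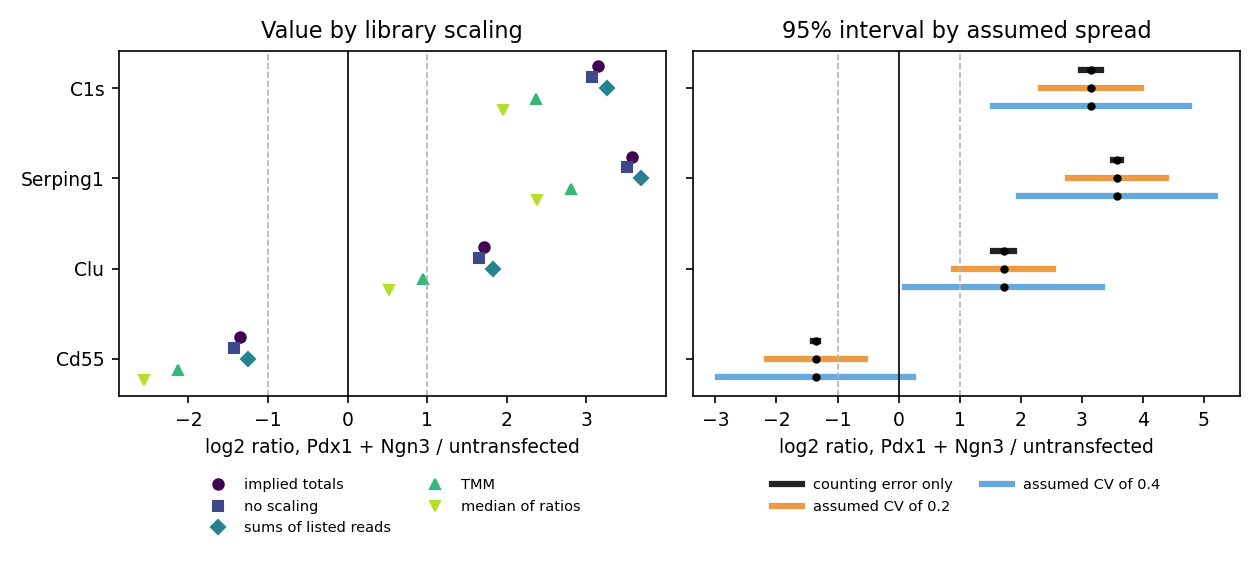
Left, log2 ratio of transfected over untransfected reads for each member under 5 library scalings; right, its 95% interval from counting error alone and with an assumed biological coefficient of variation (CV) of 0.2 or 0.4; dashed lines are 2-fold. All 4 members keep their sign under every scaling shown, Clu falls inside the dashed line with TMM and median-of-ratios factors, and the widest Cd55 interval crosses 0.

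Among 56 symbols of complement genes in 6 lists (recognition and initiating proteases, C3, C4 and the alternative pathway, terminal components, fluid-phase regulators, membrane regulators and receptors), 6 are reported from the table. Of these 5 were higher and 1, Cd55, was lower, against 63.5% higher over all 2325 rows. Their median log2 ratio was 2.51, against 1.24 over all rows, and it lay between Cfp and Susd4, the genes with the fewest reads of the 6. The 4 members are among these 6 genes, which are too few to set apart from that background. No terminal component (7 symbols) and no complement receptor (12 symbols) was found in the table, and those genes were not analysed here. All lists were matched by symbol, and 595 of the 2325 rows have no symbol. With median-of-ratios factors 3 were higher and 1 lower, where 37.6% of all calls were on the higher side. The 2 genes of these 6 that are not members, Susd4 and Cfp, were both higher, from low levels.

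Susd4, a membrane protein with sushi domains that inhibits complement, had 11 and 68 reads (6.50-fold, 3.42 to 13.6). Cfp, properdin, which stabilises the alternative pathway convertase, had 7 and 33 reads (4.96-fold, 2.16 to 13.3). Both stayed under 4 RPKM in both libraries. Cd55 and Susd4, the listed membrane regulators, thus went opposite ways, but their summed level followed Cd55, from 865 to 340 RPKM. Serping1 and Clu, the fluid-phase regulators among these 6, were both higher, as were 63.5% of all rows. Their summed level went from 165 to 1752 RPKM, most of it from Serping1 (140 and 1669 RPKM). Both sums therefore mostly restate the values of the members Cd55 and Serping1, and no contrast between the classes of regulators is drawn from them.

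**Figure D3:**
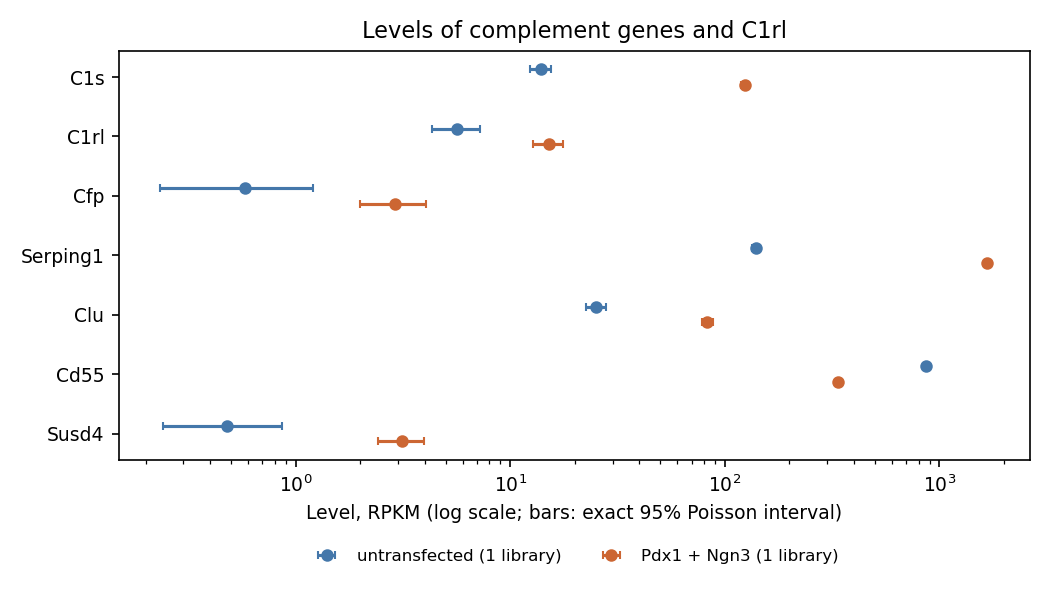
Level of the 6 complement genes and of C1rl, a related protease outside the lists, in RPKM (log axis) in the untransfected and the transfected library, 1 library each, with exact Poisson intervals; where no bar shows, the interval is narrower than the point. Serping1 moves from 140 to 1669 RPKM and Cd55 from 864 to 337 RPKM, while Cfp and Susd4 start under 1 RPKM.

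The gene annotation deposited with the table shows what the members share. C1s, Serping1 and Clu carry the term humoral immune response mediated by circulating immunoglobulin, which 6 rows with a symbol held, 5 of them higher, in a table with 63.5% of rows higher. C1s, Clu and Cd55 carry the term defense response, held by 47 rows with a symbol, 32 higher and 15 lower (median log2 ratio 1.41), close to the share over the whole table. Of rows with a symbol, A2m, Serping1 and Cfp held the complement activation terms, and all 3 were higher, a count too small to set against that share. C1rl, the C1r-like protease, named after its values were seen, is in none of the lists. It had 61 and 155 reads and was 2.67-fold higher (1.98 to 3.66), at 5.64 and 15.1 RPKM, a smaller ratio than that of C1s.

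The C1 inhibitor also blocks proteases of the contact and clotting systems, so these genes and the other serpins were examined beside it. Of 33 contact, kinin and clotting symbols 6 were in the table, 3 higher and 3 lower. Over all rows 63.5% were higher and 36.5% lower, and 6 genes are too few to set apart from those shares. F3, tissue factor, was 2.92-fold lower (608 and 209 RPKM) and Plaur, the urokinase receptor, 3.72-fold lower (67.2 and 18.1 RPKM). A2m, the broad protease trap alpha-2-macroglobulin, was 60.8-fold higher (39.6 to 98.5, from 21 to 1213 reads), and Thbd, thrombomodulin, was 5.52-fold higher (4.98 and 27.5 RPKM).

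Of 18 other serpin symbols 6 are reported from the table, 3 higher and 3 lower, against 63.5% and 36.5% over all rows. Their median log2 ratio was -0.23, against 1.24 over all rows, and 6 genes are too few to set apart from that background. No row of the table had an absolute log2 ratio under 1.00, so this median falls between the higher and the lower serpins and describes none of them. Serpinb9, an inhibitor of granzyme B, was 8.83-fold lower (268 and 30.4 RPKM), and Serpine2, protease nexin 1, an inhibitor of thrombin, was 7.73-fold lower (204 and 26.4 RPKM). Serpina3n was 162-fold higher (118 to 229, at 1.46 and 236 RPKM). Serpina3n belongs to a family of closely related genes, and how shared reads were counted is unknown, so its count is uncertain. Serpinh1, a collagen chaperone, was 2.13-fold higher (171 and 365 RPKM). Serping1 was thus under the level of Serpinb9, Serpine2 and Serpinh1 in untransfected cells and above all 6 of these serpins in transfected cells.

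Of 9 symbols for binding partners of clusterin and CD55, Apoe and Lrp8 were in the table. Lrp8, a receptor that takes up clusterin, was 7.94-fold lower (5.36 to 12.2, 234 and 28 reads). Apoe, an apolipoprotein, was 5.00-fold higher (2.30 to 12.4) from 8 to 38 reads.

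**Figure D4:**
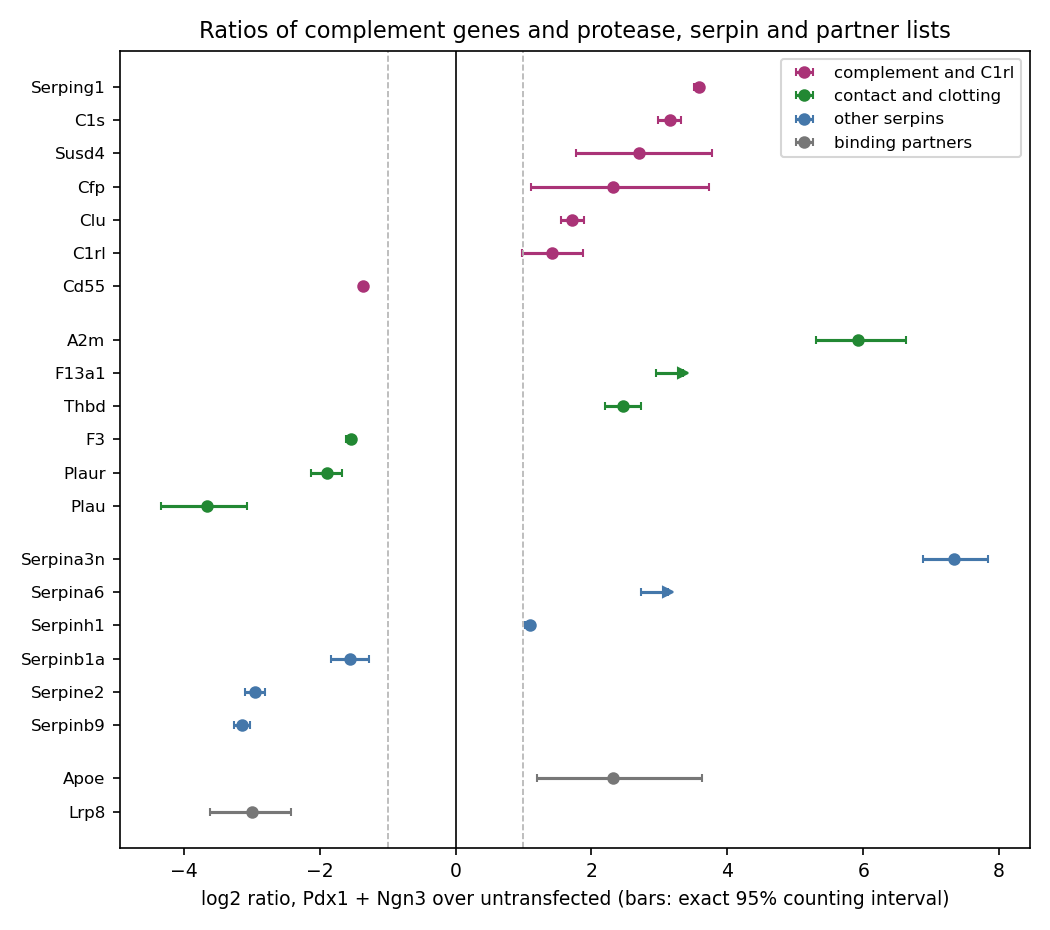
Log2 ratio of transfected over untransfected reads with its exact counting interval for the 6 complement genes and C1rl, contact and clotting genes, other serpins, and binding partners; arrowheads are bounds for genes with 0 untransfected reads, dashed lines are 2-fold. The complement genes and C1rl lie to the right apart from Cd55, and the clotting and serpin lists hold genes on both sides. Over all rows 63.5% lie to the right, 4 of the complement genes are the members, and C1rl was added after its values were seen. These counts are too small to set the lists apart.

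For each member the 2 rat genes nearest in level in both libraries were found, by the Euclidean distance of log2 RPKM over the 2 libraries. Only named rows of the table with reads in both libraries were searched, with predicted loci left out. Genes that the authors had not selected for change could therefore not be neighbours. Nearest to C1s were Hsd11b1, an enzyme that regenerates active glucocorticoid, at 13.9 and 127 RPKM (distance 0.034), and C1qtnf2, a secreted protein with a C1q domain, at 15.0 and 132 RPKM (0.14). Serping1 had no near neighbour among the rows searched, and the closest were the chemokine Cxcl6 at 220 and 2138 RPKM (0.75) and Igfbp3 at 84.4 and 1247 RPKM (0.84). Nearest to Clu were Ppp1r14a (0.14) and the kinase Akt2 (0.14). Nearest to Cd55 were Myh9, the non-muscle myosin heavy chain, at 866 and 331 RPKM (0.029), and Fstl1 at 761 and 325 RPKM (0.19). With 2 libraries such a likeness rests on 2 values per gene.

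Markers of other cells that make complement were few in the table. Because the authors selected its rows on change, a marker at like levels in both libraries would be missing from it. Absence from the table therefore does not show that such cells were scarce. Of 27 symbols for blood cells and macrophages 3 were listed: Cd68, a macrophage marker, had 5 and 26 reads, whereas Cd74 had 96 and 5 and RT1-Db1 32 and 1. Their summed level was 12.4 RPKM without and 3.45 RPKM with transfection. Of 14 hepatocyte symbols Ttr and Hp, both secreted plasma proteins, were listed. Both were higher, as were 63.5% of all rows, with a sum of 14.8 RPKM without and 44.5 RPKM with transfection. Of the endothelial list Egfl7 was lower (78 and 22 reads), and of the fat cell list Lpl, lipoprotein lipase, was higher (166 and 1156 reads). No listed marker was at 0 in either library, the other markers were not analysed here, and the part of such cells in the levels of the members was not tested.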

How the data were processed

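RNA was selected with oligo(dT) beads, fragmented, primed with random hexamers and sequenced on an Illumina GA instrument, per the labels' protocols. The build rn4 is named in the submitters' processing notes; no source used here names an aligner or counting tool. The deposited table gives read counts per cDNA cluster, RPKM computed by the authors from those counts, the log2 ratio of the authors' RPKM, and the authors' p-values with false discovery rates from an unnamed test; the last 2 were not used. The authors had selected the rows: the smallest absolute log2 ratio in the authors' deposited table was 1.00. Library totals were solved from counts, lengths and RPKM. Ratios have exact Clopper-Pearson intervals and levels exact Poisson intervals, both at 95%, and the bound for a gene with 0 reads sets that library to 3 reads. Intervals and bounds cover counting error only, and they treat reads as independent. The protocols name no molecular identifiers and amplified reads may share a source molecule, so even counting error may be understated. The interval script was tested on simulated counts.

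The members and gene lists were chosen with earlier results of these data known. Genes were named by rule: the 4 members, every listed complement gene, up to 4 listed genes of highest mean RPKM from the contact, serpin and partner lists, listed markers, and the 2 nearest genes in level to each member. A few genes are not reported here. Alternatives were other library scalings (edgeR 4.0.16 TMM and DESeq2 1.42.0 median of ratios among them), pseudocounts, a minimum of 50 reads, and an assumed biological spread. Python 3.11.15 with scipy 1.17.1 was used. Promoter sequence came from RefSeq, where 1 of the 4 members was matched.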

Additional observations from a re-analysis of the deposited data

How the results depend on the processing

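No paired analysis was possible because each group is 1 library, and for the same reason no library could be left out. Of 82 recalculations 72 were labelled unchanged and none turned a direction, but this tally is a weak check, since many could not have turned one. The deposited RPKM gave back the main ratios, because the library totals were solved from them. Gene lengths from the description were the same for all members, and an assumed spread widens an interval without moving its value. Counts and places in the table have no direction, and places were labelled unchanged even where they shifted. The log2 ratio of Clu (1.72) fell short of 2-fold with TMM factors (0.94) and median-of-ratios factors (0.52), since these move all ratios down. With an assumed coefficient of variation of 0.4, the interval included 0 for the log2 ratio of Cd55 (-1.36) and for the differences of C1s and Clu (1.43) and of Serping1 and Clu (1.86). The difference of Serping1 and C1s (0.43) already lost its call at 0.2, and again at 0.4. Over all scalings and pseudocounts the log2 ratio ran from 1.95 to 3.25 for C1s, from 2.38 to 3.68 for Serping1 and from -2.56 to -1.25 for Cd55. The complement genes reported as higher were 5, or 4 with at least 50 reads or with TMM factors, and 3 with median-of-ratios factors, where Clu and Cfp dropped out. Without the members they were 2, and 1 with at least 50 reads or with median-of-ratios factors. The alternatives for differences between members and for their places in the table were chosen after seeing the data. Depth limits Cfp and Susd4, with 7 and 11 untransfected reads, more than the members, of which the lowest count was 316.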

Other observations

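The 4 genes below have names that refer to complement or collectins, were picked after their values were seen and are in none of the lists. All 4 were higher in the transfected library, as were 63.5% of all rows, and no pattern is drawn from them. C1qtnf2 and C1qtnf7, secreted proteins with a C1q domain that are not part of the cascade, were 8.80-fold (7.39 to 10.5) and 3.78-fold (3.08 to 4.67) higher. C1qtnf2 was also named above by its nearness in level to C1s, so the likeness of their ratios follows from that rule. Rgc32, a gene named for its response to complement, had 36 and 107 reads (3.13-fold, 2.13 to 4.70). Colec12, a scavenger receptor with a collectin domain, had 599 and 1158 reads (2.03-fold, 1.84 to 2.25), just past the 2-fold limit of the table.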
